A study of Malus domestica with 16 samples.

Results

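Peel of Granny Smith apples that had received both 1-methylcyclopropene (1-MCP) and ozone (O3) was compared with untreated Control peel on 2 of the 8 dual-colour arrays of the study. The members were the 4 labelled RNA samples of those arrays, out of 16 in the series, chosen by their labels alone. They were 1-MCP+O3 replicate A in Cy3 against Control replicate A in Cy5 on 1 array, and 1-MCP+O3 replicate B in Cy5 against Control replicate B in Cy3 on the other, so that dye and replicate cannot be told apart within the comparison. All fruit were wild type and, by the methods, were picked physiologically mature in an orchard in northern Greece. They were kept for 6 months at 0 °C and 95% relative humidity, and the peel was taken straight after the cold. The methods define that sampling point as presymptomatic, but the study differs within itself on whether Control fruit were then free of scald, so this is not settled here. The 1-MCP+O3 fruit had additionally been exposed to 1-MCP for 24 h at 0 °C before storage and were then stored in air with 0.3 µl/L O3, whereas the Control fruit received neither. The labels give 1000 ppm of 1-MCP and the methods a far lower dose, so the dose is not settled here. Each sample pooled the peel of 7 apples. Fruit with and without O3 lay in separate cold rooms, so room and O3 cannot be told apart. The question the comparison addresses is how transcripts of the peel differ under the combined treatment at the end of cold storage.

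1-MCP is a gas that occupies the ethylene receptors and keeps fruit from responding to ethylene, the hormone that drives ripening in apple. Superficial scald is a browning of the peel that develops after long cold storage and is linked to the oxidation of α-farnesene, a terpene made in the peel. The peel of a green cultivar such as Granny Smith holds chloroplasts, and loss of chlorophyll and of photosynthetic transcripts is part of ripening. Ozone is a strong oxidant that is used in cold rooms against decay.

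The array held 133709 probes, of which 59208 were sense probes, each for 1 apple gene model (identifiers starting with MDP), and 59207 of these had a ratio on both arrays. A level below is a normalised intensity in arbitrary units on a linear scale that contains an offset of 50, so levels are compared between samples of 1 probe and never between probes. A ratio is the log2 of 1-MCP+O3 over Control within an array. A probe was called when limma gave an unadjusted p under 0.01 over the 2 arrays, the threshold of the study's methods, and "rose" and "fell" are used of called probes. In replicate A 54.9% of the spots were well above background for 1-MCP+O3 (Cy3) and 36.9% for Control (Cy5), and in replicate B 38.7% for 1-MCP+O3 (Cy5) and 52.4% for Control (Cy3). Only 2 extracts per group were hybridised, and how they relate to the 3 replicates in the methods is not given, so that p-values measure the spread between these samples.

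Peel identity was checked first. MdAFS1, the α-farnesene synthase of apple peel (MDP0000199152), was bright in all 4 samples, at 3014 and 15114 in 1-MCP+O3 peel and 62257 and 37365 in Control peel. Of 27 genes of cuticle and wax formation, 27 were well above background on both arrays in 1-MCP+O3 peel and 22 in Control peel. Their summed level was 86259 and 116355 in 1-MCP+O3 peel, above the 34336 and 38235 in Control peel. Of 7 markers of vascular tissue, which a strip of peel can include, 7 were well above background in 1-MCP+O3 peel and 6 in Control peel, with summed levels of 8319 and 3919 in 1-MCP+O3 peel and 2921 and 2255 in Control peel. Both sums were higher in the 2 samples of 1-MCP+O3 peel. Both lists came from named genes that the study had mostly selected for a rise in 1-MCP over the same Control extracts. In that comparison 27 of the 27 cuticle genes and 6 of the 7 vascular markers were called higher. The direction of the sums is thus not independent of the selection and does not measure tissue make-up. The part of tissue make-up in the changes below was not tested. On such pooled samples a smaller share of a cell type and less RNA per cell cannot be told apart.

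The combined treatment was accompanied by calls in both directions. Of 59207 sense probes 2145 were called, or 3.62%, with 1214 higher in 1-MCP+O3 peel (2.05%) and 931 lower (1.57%). All 2145 had a signal well above background in 1 or both channels of each array. Of the sense probes 62.8% met that condition, and the calls make up 5.77% of them (3.26% higher and 2.5% lower). The change reached 2-fold for 783 of the probes that rose, 4-fold for 237 and 8-fold for 55, and for 610, 170 and 56 of those that fell. The median ratio was 1.21 among probes that rose and −1.22 among those that fell, against 0.0017 over all sense probes. The evidence behind any 1 probe was thin: the lowest Benjamini-Hochberg adjusted p in limma was 0.337, 0 probes passed an adjusted p of 0.05, and 6373 had an unadjusted p under 0.05. The 2 samples of 1-MCP+O3 peel did not overlap with those of Control peel for 2108 of the called probes, and for 36.0% of all sense probes. Over all sense probes 50.2% had a ratio of the same sign on both arrays, and the ratios of the 2 arrays differed by a median of 0.25.

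**Figure D1:**
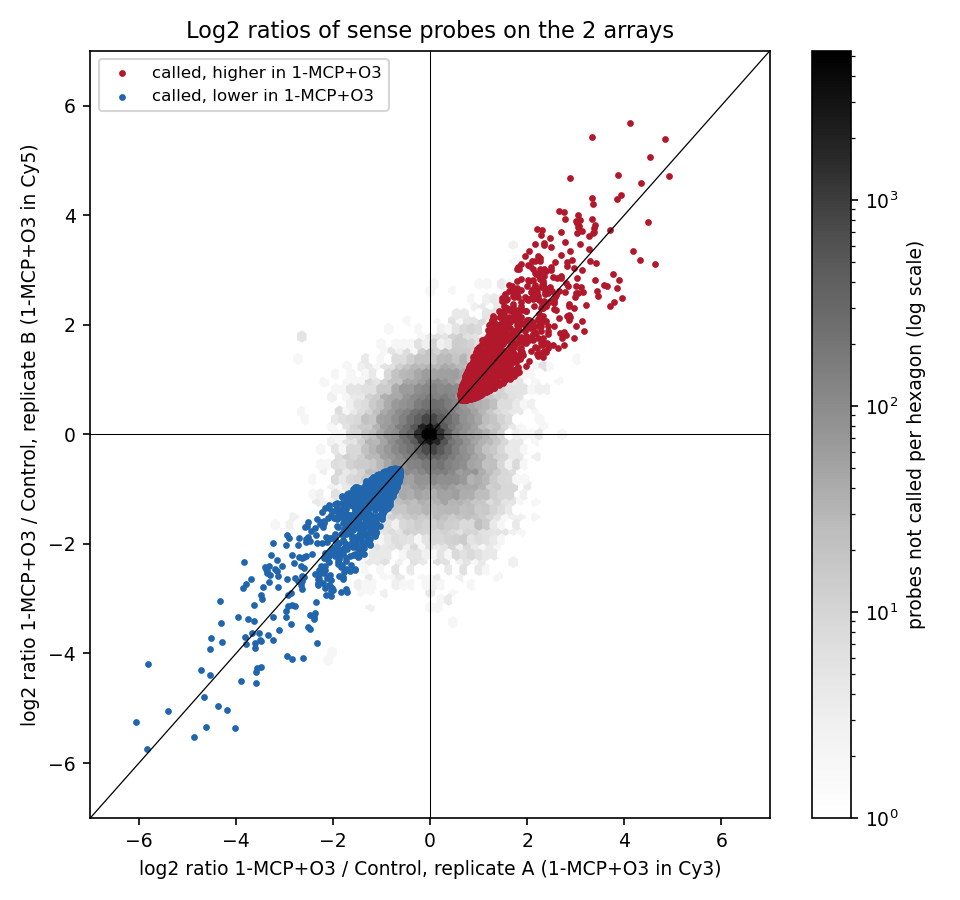
Log2 ratio of 1-MCP+O3 over Control on the array of replicate B (vertical axis) against that of replicate A (horizontal axis) for all sense probes, with called probes marked by direction. The 2145 called probes lie along the line of equal ratios, and the others scatter around 0 without a common sign, 50.2% of all sense probes having the same sign on both arrays.

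Function names were available for 1310 sense probes, from the part of the study's table of changed transcripts that was used here. Most of the entries in it had been selected by the study for a rise in 1-MCP over Control, a comparison that used the same Control extracts, so the direction of the named genes is not independent evidence. Of these 1310 probes 570 rose and 10 fell, with a median ratio of 1.02. The 21 keyword lists drawn from them hold 391 probes, of which 211 rose and none fell. The shares that rose stand beside 2.05% of all sense probes, and, since the names were selected, also beside 359 of the 919 named probes outside the lists, whose median ratio was 0.93. Another 644 probes that rose and 921 that fell carry no name here.

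Genes of the chloroplast formed the lists with the highest ratios. Among subunits of the photosystems and of the oxygen-evolving complex, which carry out the light reactions, 24 of 30 rose and the median ratio was 2.35. Of 31 light-harvesting antenna proteins, which bind chlorophyll and pass on absorbed light, 26 rose with a median of 2.14. Of 19 genes of photosynthetic electron transport and the chloroplast ATP synthase, 13 rose with a median of 2.21. Every member of these 3 lists had a ratio above 0, the lowest being 0.52, 0.24 and 0.61 in the order given.

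The antenna gene LHCA1 (MDP0000259706), which belongs to photosystem I, had levels of 16807 and 12470 in 1-MCP+O3 peel and 556 and 473 in Control peel. PSAG (MDP0000148121), a small subunit of the photosystem I core, had 9987 and 6712 in 1-MCP+O3 peel and 493 and 280 in Control peel. PSAD-2 (MDP0000700880), which helps dock ferredoxin at photosystem I, stood at 5060 and 4788 in 1-MCP+O3 peel and at 350 and 243 in Control peel. In all 3 genes both samples of treated peel lay more than 10-fold above both Control samples, and their ratios were 4.82 ± 0.14, 4.46 ± 0.17 and 4.08 ± 0.31 (SD, n = 2 arrays). The adjusted p of each was 0.337 in limma.

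On the side of photosystem II, PsbW (MDP0000281971), a small reaction centre protein, was at 9600 and 4990 in 1-MCP+O3 peel and 428 and 340 in Control peel, a ratio of 4.18 ± 0.43. PSBP-1 (MDP0000361338), an extrinsic protein of the oxygen-evolving complex, was at 4332 and 3904 in 1-MCP+O3 peel and 511 and 350 in Control peel, a ratio of 3.28 ± 0.28. The antenna protein LHCB5 (MDP0000943426) was at 5788 and 3549 in 1-MCP+O3 peel and 556 and 275 in Control peel, a ratio of 3.54 ± 0.22. The groups lay well apart in each of them. A pair of gene models annotated as LHCA3, another antenna protein of photosystem I, differed in size of change, with ratios of 4.30 ± 0.60 for MDP0000135220 and 1.97 ± 0.03 for MDP0000866655. In electron transport the ferredoxin-NADP reductase LFNR1 (MDP0000811918) had a ratio of 2.98 ± 0.23, PGR5 (MDP0000828736), required for cyclic electron flow, 2.21 ± 0.19, and a subunit of the cytochrome b6f complex (MDP0000854250) 2.75 ± 0.34.

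Carbon fixation and pigment synthesis moved the same way with smaller medians. Of 33 genes of the Calvin cycle and photorespiration 23 rose, with a median ratio of 1.59. Rubisco activase (RCA, MDP0000223905), which frees Rubisco from inhibitors, had 4061 and 3354 in 1-MCP+O3 peel and 309 and 253 in Control peel, and its ratio of 3.72 ± 0.01 was nearly equal on both arrays. Phosphoribulokinase (PRK, MDP0000322896), which regenerates the acceptor of CO2, had 2646 and 2031 in 1-MCP+O3 peel and 259 and 159 in Control peel, with a ratio of 3.51 ± 0.23. Neither gene overlapped between the groups. The small subunit of Rubisco (RBC, MDP0000185022) had 1205 and 421 in 1-MCP+O3 peel and 173 and 119 in Control peel, and it rose with more spread, at 2.31 ± 0.70.

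Among 22 genes of chlorophyll and carotenoid synthesis 10 rose, with a median of 1.56. They included protochlorophyllide reductase PORA (MDP0000325356) at 1.92 ± 0.29 and GUN5 (MDP0000294642), a subunit of magnesium chelatase, at 2.08 ± 0.26. A second GUN5 model (MDP0000280093) was not well above background in Control peel, with 316 and 211 in 1-MCP+O3 peel and 110 and 63.1 in Control peel, and its mean log2 level gives an at least 3.10-fold higher level in 1-MCP+O3 peel. Of the carotenoid genes, phytoene synthase (MDP0000261447) had a ratio of 1.50, lycopene epsilon cyclase (MDP0000158790) 0.83 and zeta-carotene desaturase (MDP0000255025) −0.31, and these 3 were not called. Chlorophyll breakdown had the second lowest median of all lists at 0.66, with 2 of 7 genes called, both ACD1-like oxygenases (MDP0000328000 at 0.99 and MDP0000137432 at 0.66). ACD1 itself (MDP0000315206), which opens the chlorophyll ring, had a ratio of 0.25 and the chlorophyllase ATCLH2 (MDP0000126175) one of 0.37, and neither was called. Of 13 genes of plastid gene expression and import 6 rose with a median of 1.46, among them the sigma factor SIGA (MDP0000939377) at 1.83 ± 0.09.

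**Figure D2:**
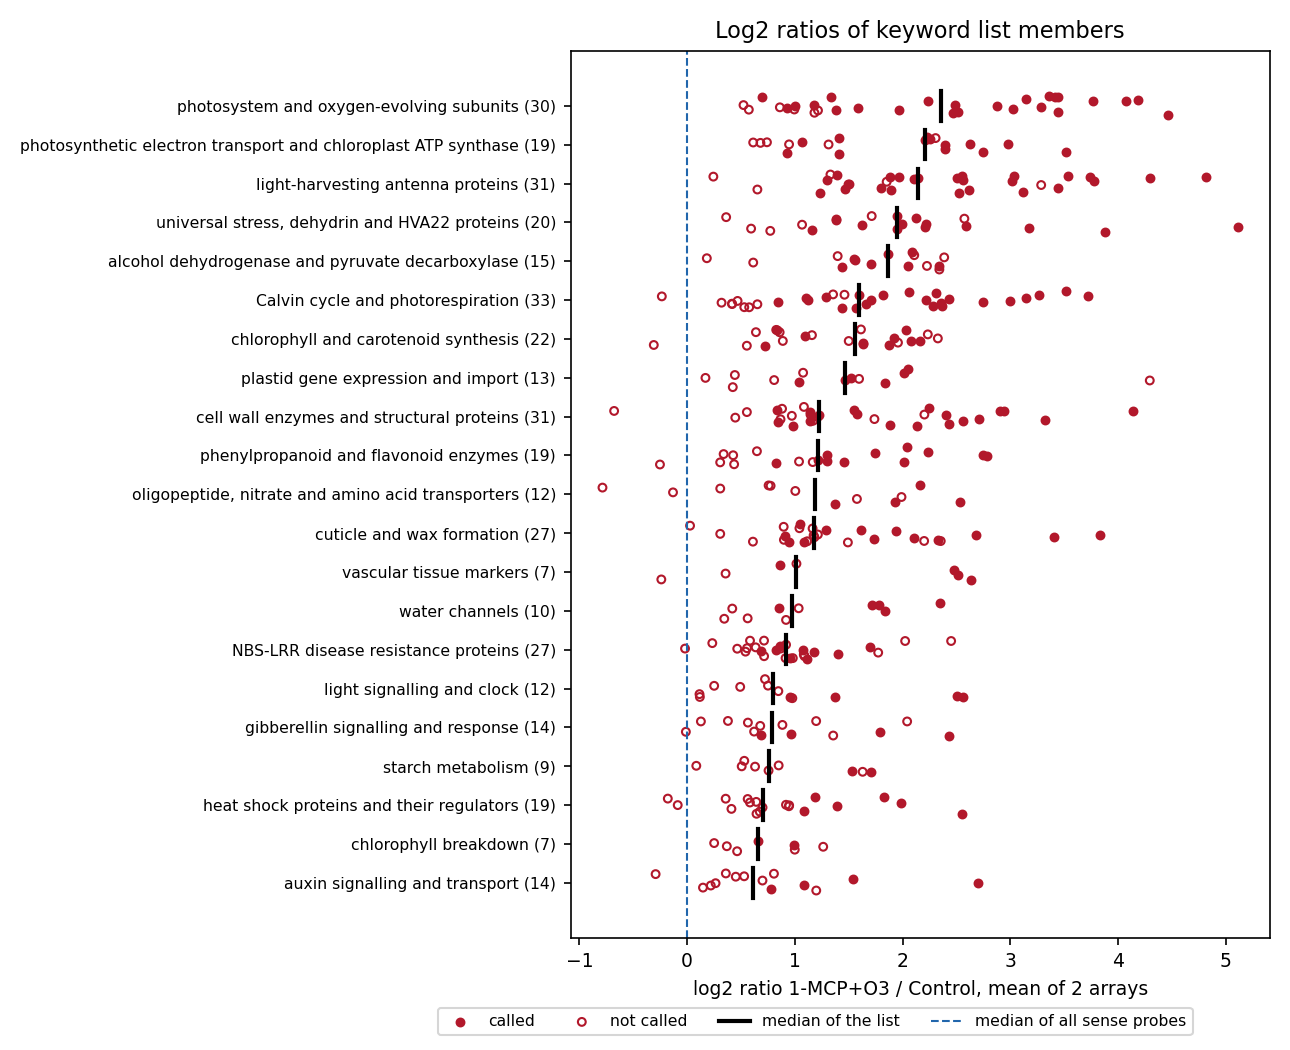
Log2 ratio of 1-MCP+O3 over Control, mean of 2 arrays (horizontal axis), for each member of the 21 keyword lists (vertical axis, number of members in parentheses), with filled points for called members, a bar at the list median and a dashed line at the median of all sense probes. Medians run between 0.61 for auxin signalling and 2.35 for photosystem subunits, and no called member lies below 0.

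Members of the lists of stress protection and fermentation also rose. The largest rise of all sense probes was that of a universal stress protein (MDP0000142824), one of a family of small proteins induced under adverse conditions. It had levels of 18364 and 11900 in 1-MCP+O3 peel and 644 and 283 in Control peel, a ratio of 5.11 ± 0.40 or 34.6-fold. Of 20 universal stress, dehydrin, metallothionein and HVA22 proteins 14 rose with a median of 1.95, including Dehydrin 2 (MDP0000529003), of a family that protects cells against water loss, at 2.21 ± 0.33. The drought-induced ATDI21 homologue (MDP0000324831) had 7937 and 2929 in 1-MCP+O3 peel and 318 and 338 in Control peel, and despite a spread of 3.88 ± 1.08 its groups did not overlap. Of 15 genes for alcohol dehydrogenase and pyruvate decarboxylase, enzymes of ethanol formation, 8 rose with a median of 1.87. All 8 are annotated as ADH1, and examples are MDP0000387639 with 16301 and 19071 in 1-MCP+O3 peel against 3749 and 4596 in Control peel, and MDP0000594290 with 16083 and 24756 against 3818 and 4081. Near-identical gene models of such a family may share signal on a probe, so their ratios are not separate measurements. Among 19 heat shock proteins and their regulators 6 rose with a median of 0.70, led by the BAG7 homologue (MDP0000243873) at 2.55 ± 0.39 and the plastid HSP21 (MDP0000214382) at 1.98 ± 0.44. This list lay below the named probes outside the lists, of which 359 of 919 rose with a median of 0.93.

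The surface and the walls of the peel cells were represented by 2 lists. Of 27 cuticle and wax genes 13 rose with a median of 1.18. The acyl-CoA reductase MDP0000271686, of the family that makes the alcohols of wax, had 5329 and 5374 in 1-MCP+O3 peel and 526 and 269 in Control peel, a ratio of 3.83 ± 0.69. A set of 3 models of CYP86B1, a hydroxylase of fatty acids, rose by 2.10 ± 0.17 (MDP0000119148), 2.33 ± 0.24 (MDP0000508330) and 2.69 ± 0.47 (MDP0000234292). The wax regulators MYB96 (MDP0000403071) and MYB94 (MDP0000149535) rose by 1.05 and 1.94, whereas CER1 (MDP0000477496), which makes alkanes, had a ratio of 1.04 and was not called. Of 31 cell wall genes 19 rose with a median of 1.22. The arabinogalactan protein FLA2 (MDP0000904458) had 3897 and 4613 in 1-MCP+O3 peel and 257 and 224 in Control peel, a ratio of 4.14 ± 0.31. The expansin-like ATEXLA2 homologue MDP0000126245 rose by 3.33 ± 0.08, and an inhibitor of pectin methylesterase (MDP0000679993) by 2.94 ± 0.18.

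Of 19 phenylpropanoid and flavonoid genes 11 rose with a median of 1.21, including dihydroflavonol reductase (DFR, MDP0000925447) at 2.79 ± 0.30, flavonoid 3′-hydroxylase (TT7, MDP0000127182) at 1.75 ± 0.12 and the flavonol regulator MYB111 (MDP0000793261) at 2.75 ± 0.36. The cinnamate hydroxylase models MDP0000229348 and MDP0000219895 had low ratios that were not called, 0.43 and 0.34. Chalcone synthase (CHS, MDP0000432621), named in the study and not a member of this list, had a ratio of 0.08 ± 0.16 and was not called either. CHS was dim in all samples, at 106 and 137 in 1-MCP+O3 peel and 108 and 120 in Control peel, and the groups overlapped. Of 10 water channels 5 rose with a median of 0.98. Of 7 vascular markers 4 rose with a median of 1.01, namely the xylem peptidase XSP1 (MDP0000272177, 2.48 ± 0.11), a pair of models of XND1, a regulator of xylem formation (MDP0000135374 at 2.52 ± 0.29 and MDP0000240094 at 2.64 ± 0.47) and the potassium channel SKOR (MDP0000142193, 0.86 ± 0.01).

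In the lists of hormone response, light signalling, transport, starch and resistance fewer members were called than not. Of 14 gibberellin genes 4 rose (median 0.79), a gibberellin-regulated protein (MDP0000126601) at 2.43 ± 0.88, GASA4 (MDP0000232908) at 1.79 ± 0.03 and a pair of models of SLY1, a positive regulator of gibberellin signalling in Arabidopsis. Of 14 auxin genes 4 rose (median 0.61), led by an auxin-responsive protein (MDP0000654738) with 5079 and 5822 in 1-MCP+O3 peel and 881 and 794 in Control peel, a ratio of 2.70 ± 0.25. Of 12 genes of light signalling and the clock 4 rose (median 0.80), among them TOC1 (MDP0000147546), a clock component, at 1.37 ± 0.40. Of 12 oligopeptide, nitrate and amino acid transporters 4 rose (median 1.19), all of them proton-dependent oligopeptide transporters between 1.38 and 2.53. Of 9 starch genes 2 rose (median 0.76), both starch synthases (MDP0000122981 at 1.53 ± 0.17 and MDP0000095637 at 1.70 ± 0.42). Of 27 resistance proteins of the NBS-LRR type, intracellular receptors for pathogens, 9 rose (median 0.91), with ratios between 0.69 (MDP0000303965) and 1.69 (MDP0000151683).

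The largest falls exceeded the largest rises in size and carry no function name in the sources used here. MDP0000263180 had levels of 209 and 447 in 1-MCP+O3 peel and 11850 and 23873 in Control peel, a ratio of −5.78 ± 0.06 and so a 55.1-fold lower level. MDP0000219062 had 950 and 985 in 1-MCP+O3 peel and 63578 and 37524 in Control peel, a ratio of −5.66 ± 0.57, although the Control spot was saturated on 1 of the 2 arrays. MDP0000235068 had 63.5 and 116 in 1-MCP+O3 peel and 2684 and 3864 in Control peel, a ratio of −5.23 ± 0.24. The groups were far apart in each. The 12 largest falls lay between −5.78 and −4.47, and the 12 largest rises between 3.83 and 5.11. Besides LHCA1, LHCA3, PSAG, PsbW, PSAD-2, the universal stress protein, FLA2, ATDI21 and the acyl-CoA reductase, the largest rises were 3 models with no known function, MDP0000156578 (4.90), MDP0000196174 (4.79) and MDP0000145916 (4.38).

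**Figure D3:**
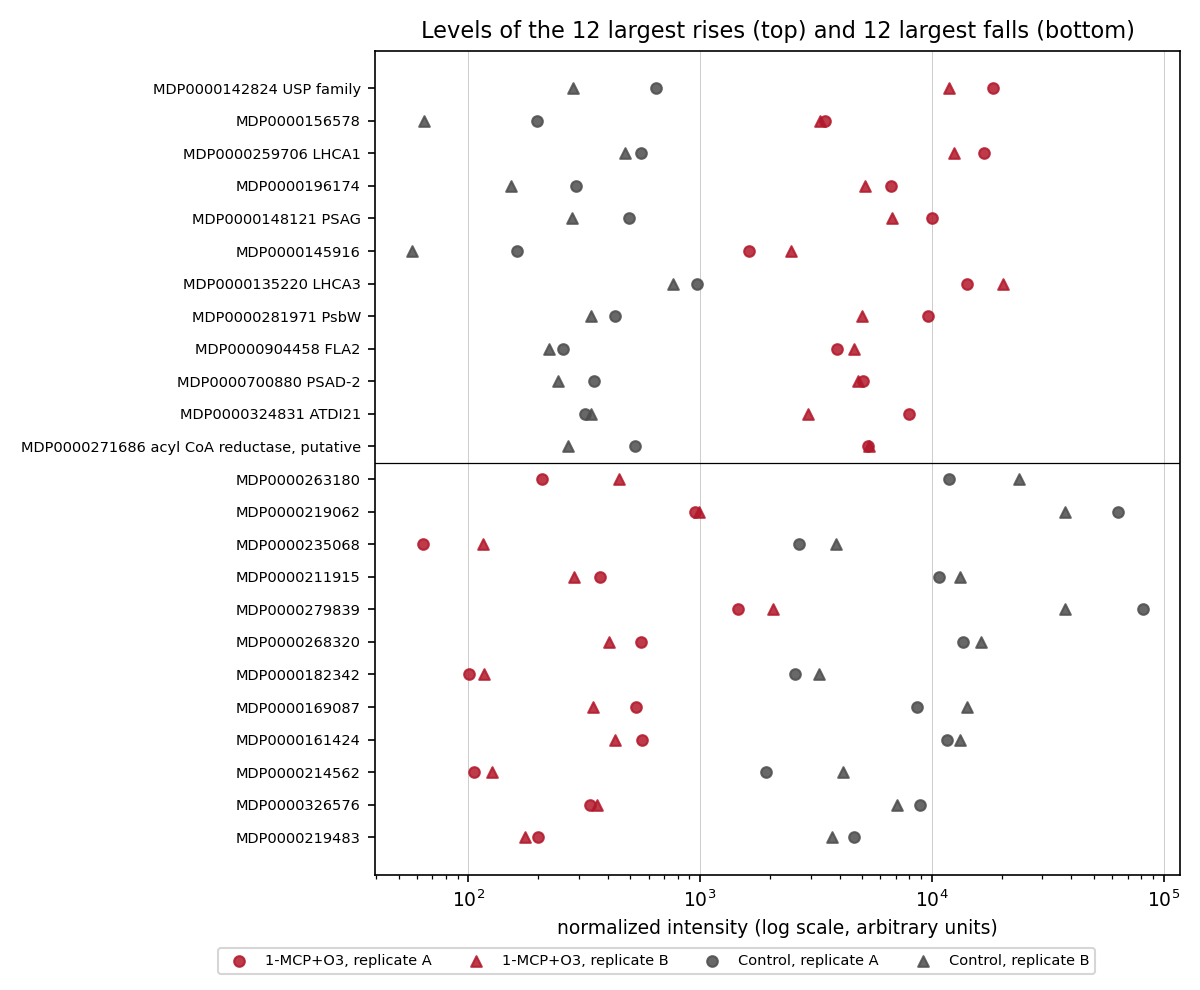
Normalised intensity in arbitrary units on a log axis for the 12 largest rises (upper rows) and the 12 largest falls (lower rows), with 1 point per sample for 1-MCP+O3 and Control, replicates A and B. The groups do not overlap in any of the 24 genes, and Control levels of MDP0000219062 and MDP0000279839 lie at 37524 or more.

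Genes the study had measured by RT-qPCR allowed a look at ripening and scald. The study chose its targets because they were called in multiple comparisons of these arrays, so their calls are not independent evidence. The primer pairs are shown, forward before reverse and all in lower case, because they define which stretch of each transcript the study followed for the 4 targets that were called and for the farnesene synthase:
MdBGal1 forward: tcaggtaccacattcctcgat
MdBGal1 reverse: aaccaacgaaatccttgacg
MdPME2 forward: ttgaaagttgtgctgccatc
MdPME2 reverse: gacgtgccgaagaaaaagac
MdFQR1 forward: gcataagttcccgcaccata
MdFQR1 reverse: ccgctggaattttctacagc
MdSLC forward: agcgggagatgagtaggaca
MdSLC reverse: ttccttggatgatgctgttg
MdAFS1 forward: gatattttagatgaggcgaaagc
MdAFS1 reverse: gcgttgatttgccatttgac

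The β-galactosidase MdBGal1 (MDP0000416548), of a family that removes galactose from wall polymers, had array levels of 323 and 626 in 1-MCP+O3 peel and 2214 and 5494 in Control peel. The pectin methylesterase MdPME2 (MDP0000222620), which readies pectin for degradation, had 362 and 403 in 1-MCP+O3 peel and 2101 and 1281 in Control peel. Both wall enzymes were lower in each treated sample than in each Control sample, with ratios of −2.95 ± 0.25 (limma adjusted p = 0.337) and −2.10 ± 0.61 (adjusted p = 0.410). MdFQR1 (MDP0000393227), a quinone reductase that keeps quinones reduced, fell by 1.79 ± 0.37, with 3994 and 2236 in 1-MCP+O3 peel and 11556 and 9268 in Control peel. MdSLC (MDP0000877937), an anion exchanger, was the target that rose, with 1705 and 1256 in 1-MCP+O3 peel and 348 and 319 in Control peel, a ratio of 2.13 ± 0.22.

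The other 3 targets were not called. MdAFS1, whose levels are given above, had a ratio of −4.37 in replicate A and one of −1.31 in replicate B. Its mean of −2.84 came with a spread of 2.17 and an adjusted p of 0.736 in limma, and the Control spot was saturated on 1 array. The expansin-like MdEXLA (MDP0000568045) had 1032 and 2038 in 1-MCP+O3 peel and 579 and 743 in Control peel, a ratio of 1.15 ± 0.44. The peroxidase MdPOX (MDP0000209189) had 5060 and 2938 in 1-MCP+O3 peel and 2070 and 2423 in Control peel, a ratio of 0.78 ± 0.71. In these 3 genes the groups did not overlap either, a property shared by 36.0% of sense probes. None of the 5 reference genes of the RT-qPCR was called, and their ratios lay between −0.25 and 0.37. The study had picked them for not being called in any comparison of these arrays, so the lack of calls follows from that choice. GAPDH (MDP0000645828) had ratios of 1.16 and −1.16 on the 2 arrays, opposite in sign, so that a dye or replicate difference of that size occurred in a bright gene.

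Ethylene perception and terpene synthesis were represented by single genes. ERS1 (MDP0000242413), an ethylene receptor, had 153 and 181 in 1-MCP+O3 peel and 2129 and 1208 in Control peel, and fell by 3.27 ± 0.75 or 9.66-fold. Farnesyl diphosphate synthase FPS2 (MDP0000198736), which makes the precursor of farnesene, had 329 and 387 in 1-MCP+O3 peel and 431 and 535 in Control peel, a ratio of −0.43 ± 0.05 that was not called.

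Of 10 genes from the study's regulatory network 1 rose and 2 fell, beside 2.05% and 1.57% of all sense probes. The study had drawn the network from transcripts called in comparisons of these same extracts, so the genes are a selected set. Polyphenol oxidase (MDP0000699845), an enzyme of tissue browning, had 4964 and 4541 in 1-MCP+O3 peel and 21085 and 21066 in Control peel, a ratio of −2.15 ± 0.09. ALD1 (MDP0000386317), an aminotransferase of systemic resistance in Arabidopsis, had 67.3 and 118 in 1-MCP+O3 peel and 210 and 417 in Control peel, a ratio of −1.73 ± 0.12. PAD4 (MDP0000770174), a regulator of defence in Arabidopsis, had 1047 and 1221 in 1-MCP+O3 peel and 511 and 489 in Control peel, a ratio of 1.18 ± 0.20. The groups did not overlap in any of the 3. The 7 others had ratios between −0.32 and 0.70, and the widest spread was that of a glycosyl hydrolase of family 17 (MDP0000404948, 0.51 ± 1.27).

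The glutathione S-transferases named in the study, enzymes that couple glutathione to reactive compounds, were mostly close to their Control level. Of 8 genes, 7 were annotated as glutathione S-transferases and 1 as an In2-1 protein (MDP0000188674). None rose and 2 fell by small amounts, beside 2.05% and 1.57% of all sense probes, and the median ratio was 0.21. The study had named these genes from the same data, so they are a selected set. The 2 that fell were models of ATGSTU8, MDP0000178304 with 2670 and 3469 in 1-MCP+O3 peel and 4196 and 5513 in Control peel, and MDP0000805474 with 242 and 380 in 1-MCP+O3 peel and 402 and 715 in Control peel. In MDP0000178304 both treated samples lay below both Control samples, at a ratio of −0.66 ± 0.01, and in MDP0000805474 likewise, at −0.82 ± 0.13. ATGSTF8 (MDP0000256360) had 9534 and 10897 in 1-MCP+O3 peel and 7478 and 10707 in Control peel, which overlapped, and a ratio of 0.19 ± 0.23. The remaining 5 had ratios between −0.12 and 0.54.

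Among 32 transcription factors named in the study 5 rose and 11 fell, beside 2.05% and 1.57% of all sense probes. The study's network was built on transcripts called in comparisons of these same extracts, so these counts are not independent evidence. Families are given as the study lists them, and some function names differ. The LBD gene MDP0000280087 is annotated as an unknown protein and the bHLH gene MDP0000254650 as an aldo/keto reductase. The MYB42 homologue MDP0000787808 had 209 and 174 in 1-MCP+O3 peel and 1087 and 1674 in Control peel, a ratio of −2.82 ± 0.63. A YABBY factor (MDP0000261432) had 82.5 and 122 in 1-MCP+O3 peel and 517 and 783 in Control peel, a ratio of −2.67 ± 0.02. A MADS factor (MDP0000212925) had 58.5 and 94.0 in 1-MCP+O3 peel and 260 and 722 in Control peel, a ratio of −2.55 ± 0.56. These 3 had the largest falls of the list, and none overlapped. The others that fell were a trihelix factor (MDP0000252463, −1.71 ± 0.05), a second MYB42 homologue (MDP0000602739, −1.64 ± 0.48), a pair of LBD factors (MDP0000280087 at −1.63 ± 0.55 and MDP0000155138 at −1.58 ± 0.48), a NAC factor (MDP0000258167, −1.16 ± 0.04), a ZF-HD factor (MDP0000253357, −1.12 ± 0.17), a bZIP factor (MDP0000249561, −0.94 ± 0.13) and a bHLH factor (MDP0000143208, −0.67 ± 0.03).

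The 5 that rose were 2 HD-ZIP factors, a CO-like factor, an NF-YA factor and an S1Fa-like factor. The HD-ZIP gene MDP0000859459 had 1257 and 828 in 1-MCP+O3 peel and 242 and 136 in Control peel, a ratio of 2.49 ± 0.16. The second HD-ZIP gene (MDP0000599845) stood at 1.62 ± 0.07, the NF-YA gene (MDP0000183865) at 1.97 ± 0.39, the CO-like gene (MDP0000713113) at 0.95 ± 0.17 and the S1Fa-like gene (MDP0000276000) at 0.84 ± 0.06. A pair of ERF genes, of the family that acts downstream of ethylene, was not called, at −1.84 ± 0.67 (MDP0000127134) and −0.59 ± 0.83 (MDP0000932292). In MDP0000127134 both treated samples, at 1939 and 1308, nevertheless lay below both Control samples, at 4993 and 6518.

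The series also held 1-MCP alone and O3 alone against Control and 1-MCP+O3 against O3, hybridisations that share extracts with the comparison described here, so their values are given side by side and are not independent. Probes that rose under 1-MCP+O3 had a median ratio of 1.21, beside 1.05 in 1-MCP over Control, where 4.63% of all sense probes were called, and 0.14 in O3 over Control, where 2.45% were. Probes that fell had a median of −1.22, beside −1.32 in 1-MCP over Control and −0.17 in O3 over Control. Of the 1214 that rose, 587 were also called higher in 1-MCP over Control (2.26% of all sense probes were) and 104 in O3 over Control (1.71%). Of the 931 that fell, 537 were called lower in 1-MCP over Control (2.37%) and 59 in O3 over Control (0.738%). Most list medians were lower under 1-MCP+O3 than under 1-MCP, and some were higher. Over all named probes the medians were 1.02 under 1-MCP+O3 and 1.19 under 1-MCP, and the median difference gene by gene was −0.23. Most of these names had been selected for a rise in 1-MCP over Control, so this order is not independent evidence. The median for antenna proteins was 2.14 under 1-MCP+O3, 3.12 under 1-MCP and 0.05 under O3, and that for photosystem subunits 2.35, 2.75 and 0.13. For electron transport and the ATP synthase the medians were 2.21, 1.75 and 0.03, and for the stress proteins 1.95, 1.62 and 0.36. Gene by gene, the median difference from 1-MCP was −0.16 for electron transport and the ATP synthase and 0.11 for the stress proteins.

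A second route to the same ratio adds 1-MCP+O3 over O3 and O3 over Control, other hybridisations of the same extracts. The sum had the sign of the direct ratio for 1212 of the 1214 probes that rose and 916 of the 931 that fell, with medians of 1.16 and −1.11. These probes had been called on the same extracts, so the shared sign is not independent evidence. The share over all sense probes is not given here. In 1-MCP+O3 over O3 itself 1831 sense probes were called (3.09%), 815 higher (1.38%) and 1016 lower (1.72%) in 1-MCP+O3 peel. RCA had a ratio of 3.34 there, LHCA1 one of 3.91 and MdBGal1 one of −2.68, beside 3.72, 4.82 and −2.95 against Control.

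**Figure D4:**
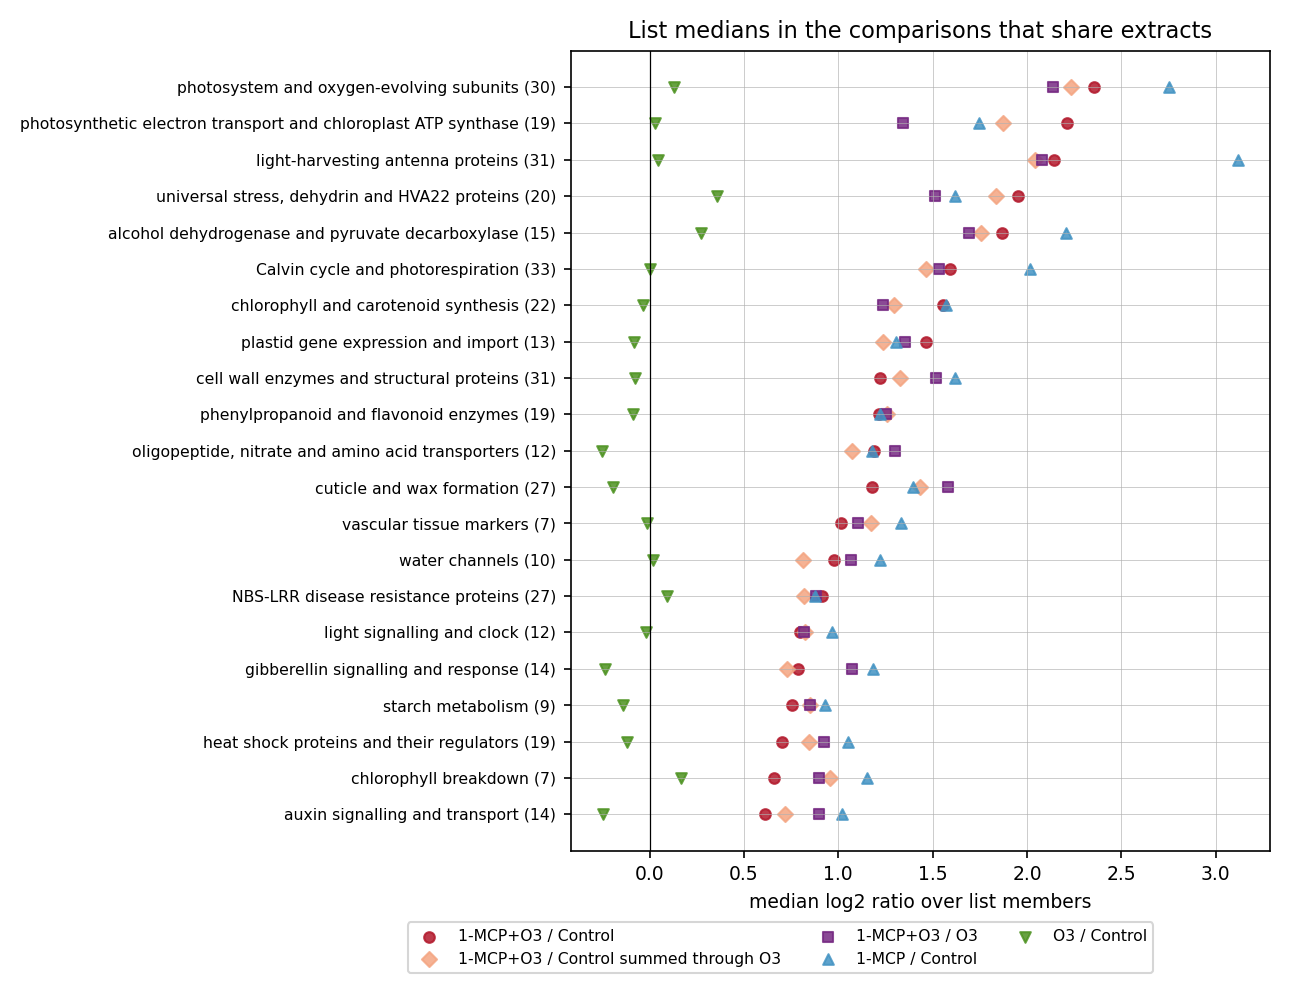
Median log2 ratio over list members (horizontal axis) of the 21 keyword lists (vertical axis, number of members in parentheses) in 1-MCP+O3 over Control, directly and summed through O3, in 1-MCP+O3 over O3, in 1-MCP over Control and in O3 over Control. All medians of O3 over Control lie between −0.25 and 0.36, and those of the other 4 are above 0.6.

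Whether the combined treatment differed from 1-MCP alone was tested as the difference of their ratios to Control, in limma over the 4 arrays. The arrays were not paired by replicate in that fit, although those of a replicate share the Control extract and the dye orientation. Its p-values therefore rest on a spread that includes the difference between replicates. At an unadjusted p under 0.01, 426 of 59205 sense probes were called (0.72%), 264 with the higher ratio under 1-MCP+O3 (0.446%) and 162 with the lower (0.274%). That threshold passes 1% of probes when none differs, and 0.72% lies below this share. The calls of single genes as differing from 1-MCP are to be read with that limit. The lowest adjusted p was 1.00, 0 probes passed an adjusted p of 0.05, and 2206 had an unadjusted p under 0.05. The comparisons lay on different slides, so slide and treatment cannot be told apart in this test. Of the probes that rose 77 were among the 426 and of those that fell 103. The arrays on which these probes had been called also enter the difference, so this overlap is not independent evidence.

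MdFQR1 had ratios of −1.79 under 1-MCP+O3, −3.54 under 1-MCP and 1.42 under O3, and the difference from 1-MCP was 1.75, called at the unadjusted threshold (limma adjusted p = 1.00). For ATGSTU8 (MDP0000178304) the ratios were −0.66, −3.89 and 1.84 and the difference 3.23, also called (limma adjusted p = 1.00). Both genes thus had a ratio between those of the single treatments. The glutathione S-transferases and the In2-1 protein had medians of 0.21 under 1-MCP+O3, −0.85 under 1-MCP and 1.15 under O3, and 3 of the 8 differed from 1-MCP at an unadjusted p under 0.01 in limma. The study had singled out its glutathione S-transferases for treatment-specific regulation in these same data, so the contrast between 1-MCP and O3 is not independent evidence. Polyphenol oxidase had ratios of −2.15, −4.50 and 1.13 in the same order and PAD4 of 1.18, −0.58 and 2.05, and neither difference from 1-MCP was called. Among antenna genes the LHCA3 model MDP0000866655 rose by 1.97 under 1-MCP+O3 and 3.51 under 1-MCP, a difference of −1.54 that was called (limma adjusted p = 1.00). For RCA the ratios were 3.72 under 1-MCP+O3 and 3.69 under 1-MCP, and for ERS1 −3.27 and −3.09, differences of 0.03 and −0.18 that were not called.

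**Figure D5:**
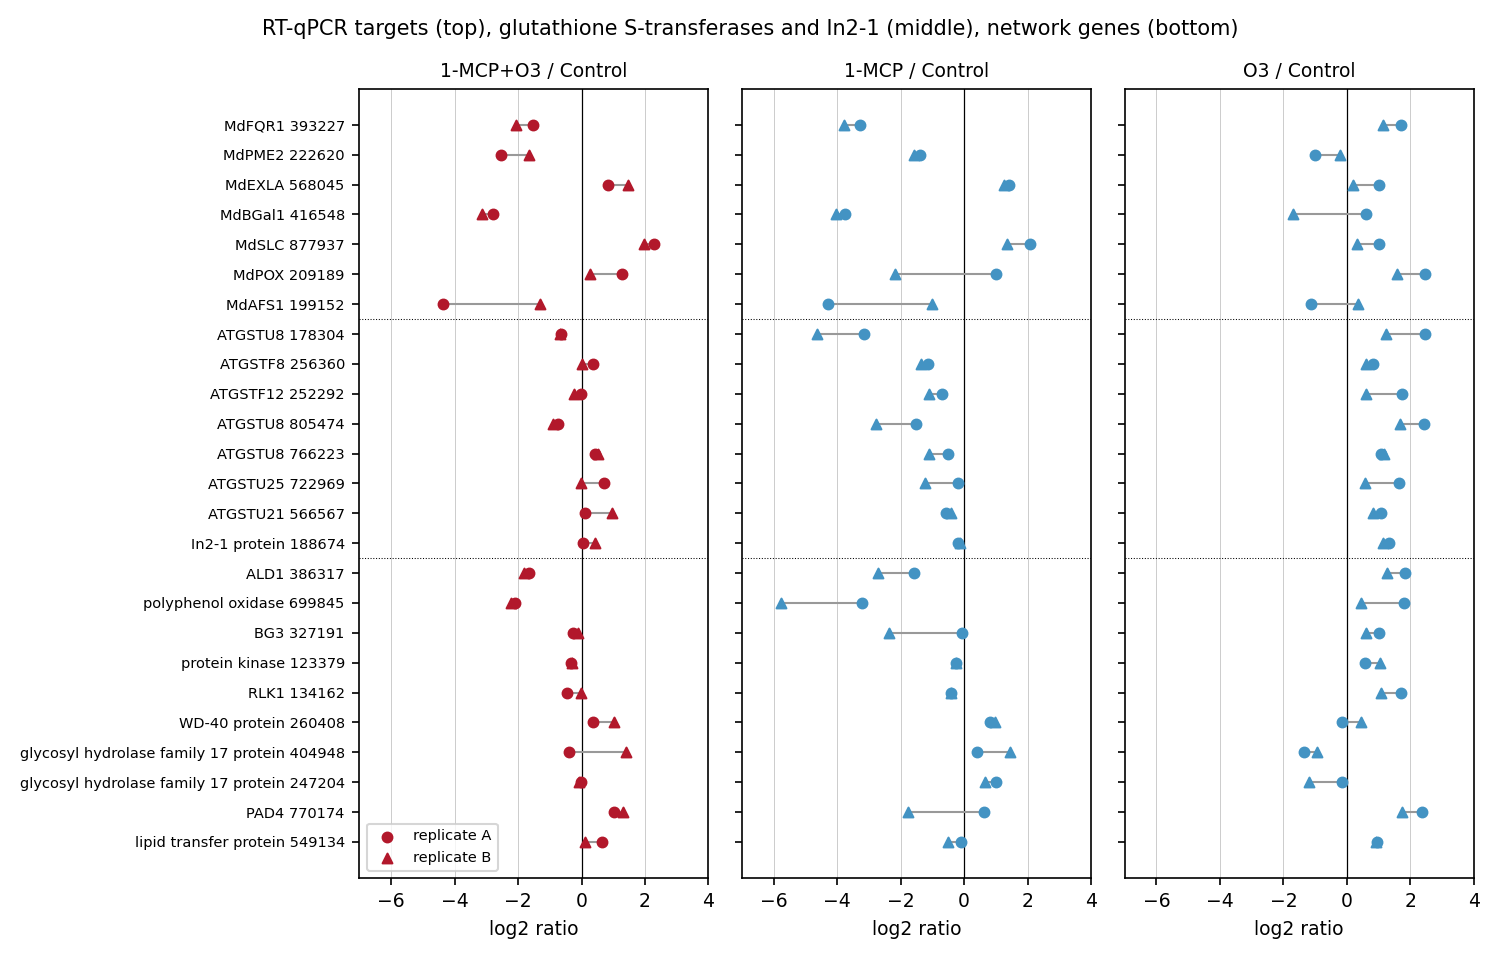
Log2 ratio (horizontal axes) on the arrays of replicate A (circles) and B (triangles) for 7 RT-qPCR targets, 8 glutathione S-transferase and In2-1 genes and 10 network genes (vertical axis, with the last 6 digits of the gene model) in 1-MCP+O3 over Control, 1-MCP over Control and O3 over Control. MdFQR1 and the ATGSTU8 model MDP0000178304 lie further below 0 under 1-MCP than under 1-MCP+O3 and above 0 under O3, and the MdAFS1 points of the first 2 panels lie far apart.

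On the antisense strand 456 of 59236 probes were called (0.77%), 175 higher and 281 lower in 1-MCP+O3 peel, a smaller share than the 3.62% of sense probes. It is also below the 1% that an unadjusted p under 0.01 passes when no probe differs. For 56 gene models both strands rose, for 81 both fell, for 2 the sense probe rose while the antisense probe fell, and for none the reverse. LHCA1 had an antisense ratio of 1.97 ± 0.12 beside 4.82 for its sense probe, RCA 0.80 ± 0.09 beside 3.72, and MDP0000263180 −1.95 ± 0.01 beside −5.78. The water channel GAMMA-TIP (MDP0000561026), which moves water across the vacuole membrane, was 1 of the 2 with opposite signs, at 1.78 ± 0.26 for the sense and −2.34 ± 0.57 for the antisense probe. The other was MDP0000158409, at 0.78 ± 0.12 and −0.94 ± 0.07. How far labelling kept the strands apart was not tested.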

How the data were processed

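Peel RNA of 4 labelled samples (2 extracts of 1-MCP+O3 and 2 of Control) on 2 arrays was analysed, and the other 6 arrays entered only where named. The authors read the scans with Agilent Feature Extraction 11.5.1.1, and the deposited values are median intensities of spots and of the background around them, without normalization. For their own tests the authors applied lowess and then limma at 1% without adjustment. Of the measurement columns 19 per array were not used here.

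Outlier spots (12 and 5) were left out, background was corrected with normexp (offset 50), loess was applied per array and spots of a probe were averaged, in R 4.3.3 with limma 3.58.1, statmod 1.5.0 and version 1.17.8 of data.table. Figures used Python 3.11.15, numpy 2.4.6, pandas 2.3.3 and matplotlib 3.10.9. Ratios were fitted with lmFit and eBayes over all probes, with 1 residual degree of freedom, and levels came from loess and Aquantile over 8 arrays. The offset draws ratios of dim probes toward 0, and for a group below the well-above-background flag on both arrays a lower bound takes the place of the fold. Precision is limited by the number of arrays. The procedure was tested on simulated data.

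Genes named are the 12 largest rises and 12 largest falls among called sense probes (bright, no outlier spot), in each keyword list the 4 called members with the lowest p, and 75 gene models identified in the study. Other genes named were picked after their values were seen. Of the functions, 1483 entries were read from a supplementary listing, and its other entries were not used here. The members and lists were chosen with earlier results of these data known. No genome of these gene models was given, so positions are not reported. Alternatives tried were no background correction, processed signals, median centring, scaling between arrays, bright probes only, outlier spots kept, joint fits of 8 arrays, trend and robust moderation, no replicate block, an adjusted threshold and leaving out each replicate.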

Additional observations from a re-analysis of the deposited data

Results flagged for a closer look

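The ratio of 1-MCP+O3 over Control minus that of 1-MCP over Control passed an unadjusted p of 0.01 in limma for 10 of the named genes. All 10 had an adjusted p of 1.00, slide and treatment cannot be told apart in the test, and the cause was not tested. The arrays were not paired by replicate in the test. Part of the named genes had been picked by their calls on arrays that enter the test, so the count of 10 is not independent evidence. Over all sense probes 0.72% were called, below the 1% that the threshold passes when no probe differs. The difference was 3.23 for the ATGSTU8 model MDP0000178304, 1.44 for ATGSTF8 (MDP0000256360) and 1.26 for the ATGSTU8 model MDP0000766223. It was 1.75 for MdFQR1 (MDP0000393227), 1.38 for the unnamed MDP0000326576, 0.99 for CHS (MDP0000432621) and 0.75 for a model annotated both as an O-acetyltransferase and as the antenna protein LHB1B2 (MDP0000320796). It was −1.54 for an LHCA3 model (MDP0000866655), −0.88 for a glycosyl hydrolase of family 17 (MDP0000247204) and −0.87 for a trihelix factor (MDP0000252463). Groups of 2 samples allowed no test for outlying samples.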

How the results depend on the processing

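The 2145 sense probes called (1214 up, 931 down) became 1096 (574 and 522) with the processed signals, 414 (289 and 125) with median centring in place of loess, and 1349 (743 and 606) when only probes well above background were tested. They became 5135 (3099 and 2036) in a joint fit of 8 arrays and 8717 (5079 and 3638) with a dye term added, fits that take hybridisations of 1 extract as independent. Without replicate A or without replicate B in that joint fit, where the lone array is assumed to vary like the others, counts were 3603 to 3763 (2112 to 2380 up, 1383 to 1491 down). At an adjusted p of 0.05, 0 probes remained in 1-MCP+O3 over Control (named genes, list members and antisense probes included), in the difference from 1-MCP and in 1-MCP+O3 over O3. Of 128 named genes called, 66 passed with processed signals, 65 with median centring and 118 to 119 without a replicate. The 211 list members that rose became 98, 102, 318 (joint fit), 337 (with dye term) and 284 to 293. The 456 antisense calls became 45 with median centring, 234 with bright probes only, 1665 and 2778 in the joint fits, 1258 with trend and robust moderation and 1092 to 1190 without a replicate. The 426 differences from 1-MCP became 2 with median centring, and the 1831 calls of 1-MCP+O3 over O3 became 1205 with processed signals and 420 with median centring. The cause was not tested. With single channels compared without the replicate block 2187 sense probes were called. The groups' differences between replicates A and B correlated at −0.18 across sense probes, and the crossed pairing, chosen after seeing the data, gave 2188. No list median or named ratio that was called changed sign, and the sum through O3 kept the sign of 2115 to 2130 called probes. Depth, as signal over background, limits dim probes: with the offset their ratios are drawn toward 0.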

Other observations

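Some gene models without a function name, picked after their values were seen, stood furthest from 1-MCP alone. MDP0000119850 had a ratio of −1.35 in 1-MCP+O3 over Control, −5.18 in 1-MCP over Control and 1.86 in O3 over Control. MDP0000287459 (−1.35, −5.36 and 1.72) and MDP0000246999 (−1.41, −5.47 and 1.93) had the same order. MDP0000748916 had a ratio of 2.74 in 1-MCP+O3 over Control, −0.65 in 1-MCP over Control and 3.09 in O3 over Control. These 4 share the Control extracts across the comparisons, and whether near-identical sequences share their signal was not tested.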
